A study of Homo sapiens with 19 samples.

Results

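The acute-phase proteins considered here are 9 genes: SAA1, SAA2, ORM1, ORM2, HP, LCN2, CRP, HAMP and CP. They were matched by Ensembl identifier, and 9 of 9 were listed in all 19 libraries, among 32703 gene identifiers that every library shared. The liver organoids were derived from the established human pluripotent stem cell line W01 (WiCell), labelled wild-type, and profiled cell by cell with the 10x Genomics 3′ version 3 chemistry. There were 9 groups. Untreated organoids on ultra-low attachment (ULA) plates were collected on day 21 (n = 3) and day 34 (n = 2). Organoids on an orbital shaker (OS) were collected on day 25, in 7 groups with 2 libraries each. The protocols give 20 days of shaker culture before treatment, and name 5 days of treatment for TGFB1 and PA. No treatment time is given for OA. TGFB1, the fibrogenic cytokine, was given at 10 ng/ml, while PA and OA were each given at 500 µM. Every one of the 3 had a control group of its own, and a further group was untreated. PA and OA are abbreviations of the labels and are not spelled out there. OA appears in the titles and sample characteristics but not in the treatment protocol. All groups come from 1 line, and nothing in the labels says that replicates were separate differentiations, so each p-value measures only the spread between these libraries, which may be technical.

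Acute-phase proteins are plasma proteins whose output by hepatocytes changes in inflammation. In the textbook scheme interleukin-6 acts through STAT3, and interleukin-1 and TNF act through NF-kB and C/EBP factors, to raise positive acute-phase genes, while negative ones such as ALB fall. SAA1 and SAA2 encode the serum amyloid A proteins of high-density lipoprotein. LCN2 binds bacterial siderophores, HAMP encodes hepcidin, which removes the iron exporter ferroportin from membranes, and CP encodes ceruloplasmin, a copper ferroxidase. ORM1 and ORM2 encode α1-acid glycoproteins, HP binds free haemoglobin, and CRP is a pentraxin that binds phosphocholine. LCN2 is also made by many epithelia.

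On GRCh38 with GENCODE v44 all 9 are protein-coding genes. SAA1 lies on chromosome 11 at 18266260-18269977 on the plus strand and SAA2 on the minus strand at 18239223-18248668. ORM1 and ORM2 follow each other on the plus strand of chromosome 9 at 114323098-114326479 and 114329869-114333251, and LCN2 is on the same chromosome at 128149071-128153453. HP is on chromosome 16 at 72054505-72061055, CRP on chromosome 1 at 159712289-159714589, HAMP on chromosome 19 at 35280716-35285143 and CP on chromosome 3 at 149162410-149221829. SAA1 with SAA2, ORM1 with ORM2, and HP with its neighbour HPR are near-identical paralogs, so the split of reads between them is uncertain. A read-through gene, SAA2-SAA4, overlaps SAA2 on its strand. It is listed for the ULA, TGFB1 and PA libraries but not for the OA, OA control and untreated libraries, so the level of SAA2 was not compared between those 2 sets.

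The upstream regions of LCN2 and HAMP are shown because these 2 genes had the largest positive changes with OA and because their textbook regulators differ. They are RefSeq promoter sequences (GRCh38.p14), cut to the bases outside annotated exons, 5′ to 3′ on the gene's strand. Capitals mark matches, on either strand, to the letters searched for NF-kB (GGGA, any 4 bases, then CC), C/EBP (TTNNGNAA), STAT3 (TTCNNNGAA) and the BMP response element (GGCGCC).
LCN2 chr9:128149265-128149440: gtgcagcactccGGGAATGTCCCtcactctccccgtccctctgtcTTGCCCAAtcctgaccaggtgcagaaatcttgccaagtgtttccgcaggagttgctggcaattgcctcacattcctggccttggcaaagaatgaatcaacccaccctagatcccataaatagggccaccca
HAMP chr19:35282278-35282493: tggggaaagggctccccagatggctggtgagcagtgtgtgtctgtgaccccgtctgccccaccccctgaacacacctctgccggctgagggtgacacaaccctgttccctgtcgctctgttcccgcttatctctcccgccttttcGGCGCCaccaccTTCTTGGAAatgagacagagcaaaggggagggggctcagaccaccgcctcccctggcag
Positions are counted back from the RefSeq start, which for both genes lies inside the longer GENCODE gene given above, and the stretches shown lie outside its exons. The 250 bases before that start were searched whole, of which 176 (LCN2) and 216 (HAMP) are shown. LCN2 held GGGAATGTCC beginning 176 bases upstream, overlapping a reverse-strand match beginning at 175, and TTGCCCAA at 143. HAMP held the BMP letters at 105 and TTCTTGGAA, a STAT3 match, at 93. Such letters are common: of 35116 RefSeq promoters, 22.6% held the NF-kB letters, 33.2% the C/EBP letters, 6.57% the STAT3 letters and 16.4% the BMP letters in the same window. CRP held 2 C/EBP matches, at 137 and 112, and ORM1 held 2 C/EBP matches, at 201 and 108, and 1 NF-kB match at 112 that overlaps the second of them. The IL-6 response element letters (CTGGGAA) and the HNF1 letters (GTTAAT, any base, then ATT), present in 9.15% and 0.296% of promoters, matched none of these 4. A match describes letters only and is not evidence of binding.

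Levels are given as CPM, the usual depth-scaled unit, in which a gene's UMIs (unique molecular identifiers, a count of captured transcripts), summed over the cells of a library, are scaled to the same total in every library. Of 138053 barcodes, the 120240 with 500 or more genes seen and no more than 20% of UMIs from mitochondrial genes were kept, giving between 6878407 and 88512435 UMIs a library over the shared genes. The PA control replicate 1 was the shallowest. No 2 libraries shared more than 32 cell barcodes. The sum of 15 hepatocyte markers ran from 103 CPM in ULA day 34 replicate 1 to 25966 CPM in OA replicate 1. At most 1 of them was at 0 in any library, which in sums of this depth does not show how many cells were hepatocytes. The fixed markers called 1 cluster hepatocyte-like in each of the ULA, OA and TGFB1 experiments and none in the PA one. The TGFB1 cluster was left unnamed after its leading genes were seen, a check applied to that experiment alone. The ULA cluster was led by PLA2G2A, SERPINA1, SPINK1 and RELN, with 7 hepatocyte markers among its 50 leading genes. It held 0.832% of the cells of ULA day 34 replicate 1. Summed libraries cannot tell fewer cells of a type apart from less RNA per cell.

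Several members rested on few molecules. ORM1 had at most 12 UMIs in any library and 0 in 9 of them, HP had at most 22, CRP at most 196, HAMP at most 210 and ORM2 at most 275. ORM1 failed the filter on low counts everywhere and CRP failed it in the ULA comparison, so 8 of 9 members were tested among the shaker libraries and 7 of 9 among the ULA libraries.

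**Figure D1:**
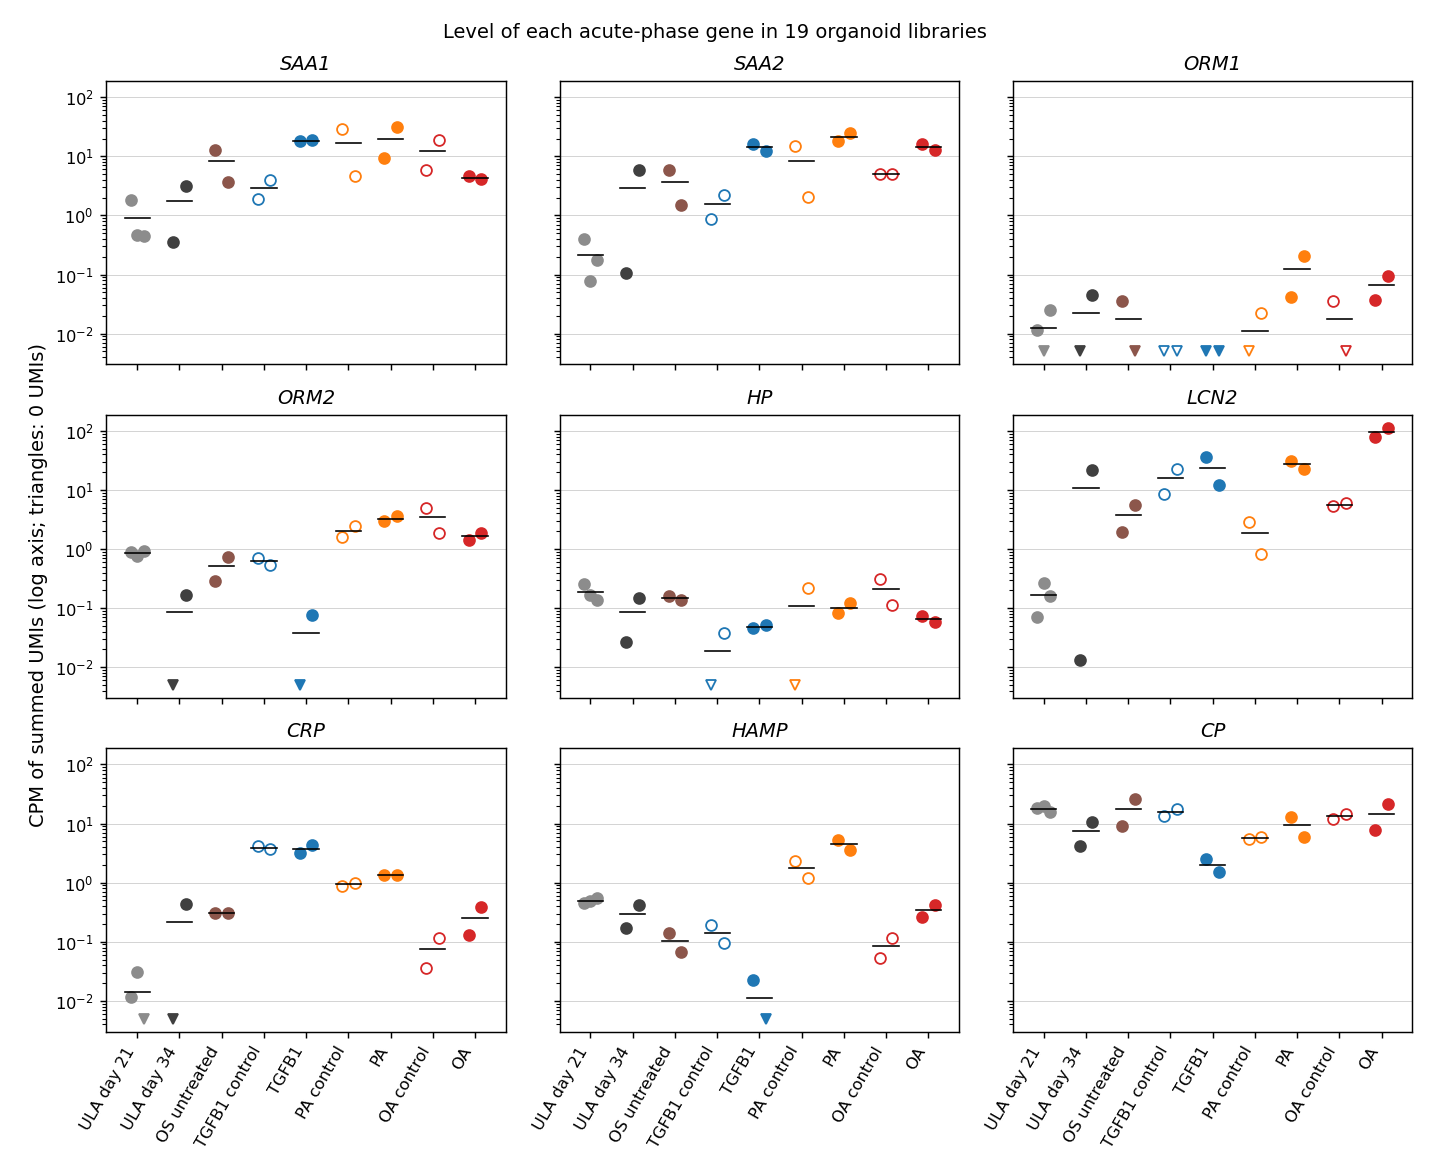
Each panel shows 1 gene, with the CPM of summed UMIs on a log axis and the 9 groups along the x axis. Each point is 1 library (open for controls of a treatment), bars are group means, and triangles at the bottom mark libraries with 0 UMIs. LCN2 with OA stood at 79.2 and 114 CPM, above its control at 5.29 and 5.99.

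With OA, 4 of 8 tested members were higher than in the control at an adjusted p under 0.05 and 0 were lower; the tool throughout is edgeR's quasi-likelihood test with Benjamini-Hochberg adjustment over all genes tested. Over all 19361 genes, 43.3% were called (21.7% higher and 21.6% lower). The members called were LCN2, HAMP, CRP and SAA2. With TGFB1, 4 of 8 were called against 22.2% of all genes (10.9% higher and 11.3% lower): SAA1 and SAA2 rose while ORM2 and CP fell. With PA, edgeR called 0 of 8 against 0.0465% of all genes, which is 9 genes. Of the 8, 2 had an unadjusted p under 0.05, LCN2 and HAMP, and DESeq2 called 1 member. Between the OA control and untreated organoids 1 of 8 was called, ORM2, against 0.573% of all genes (0.0826% higher and 0.491% lower). Between ULA day 34 and day 21, 2 of 7 were called, ORM2 and CP, both lower, against 17.5% of 18762 genes (9.6% higher and 7.91% lower). The median log2 fold change of the tested members was 1.17 with OA, 0.42 with TGFB1, 0.74 with PA, 0.64 for the OA control against untreated and -0.85 for ULA, beside -0.08, -0.05, 0.02, 0.03 and 0.02 over all genes. With OA the members' share, 4 of 8, was near that of all genes.

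**Figure D2:**
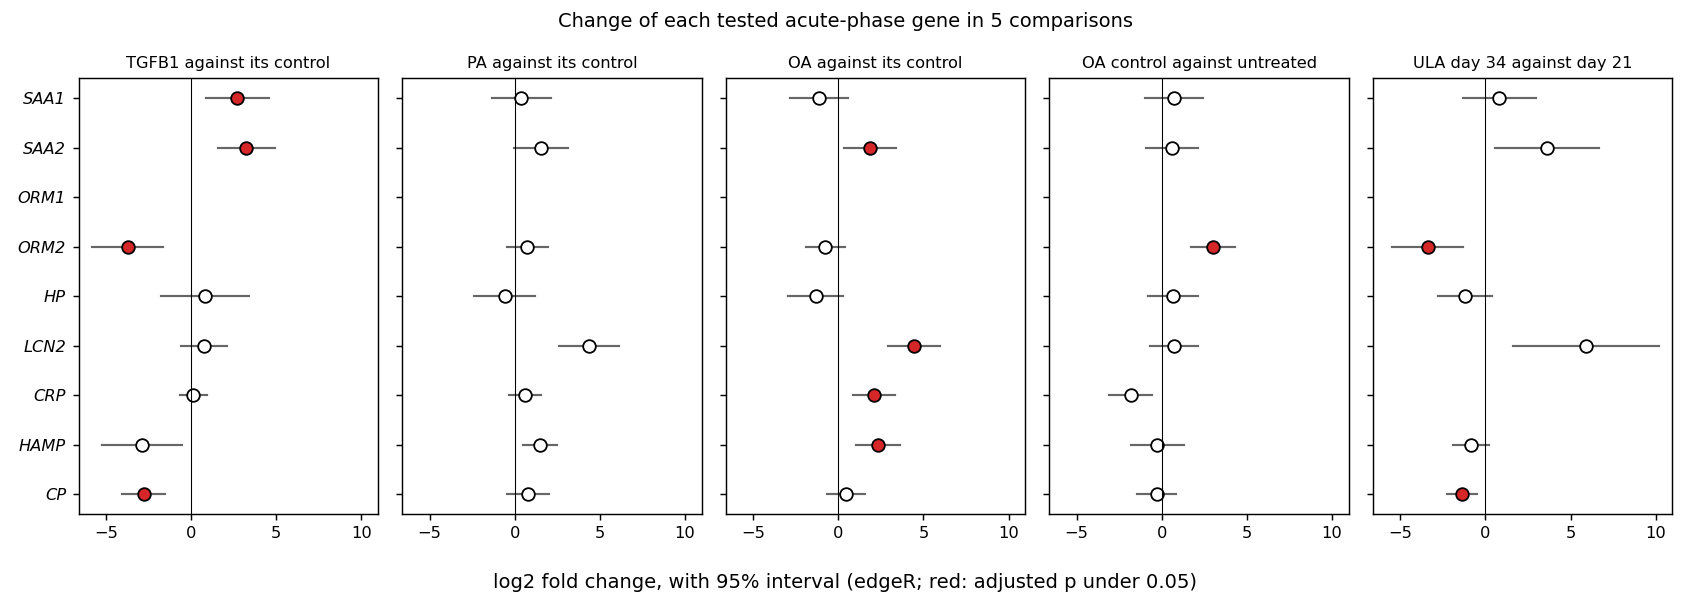
Each panel is 1 comparison, with the log2 fold change on the x axis and 1 row per gene. Points are edgeR estimates, lines their 95% intervals, and red points passed an adjusted p of 0.05. ORM1 was not tested, and CRP was not tested for ULA. LCN2 is at 4.43 with OA and 4.37 with PA, while SAA1 and SAA2 are at 2.72 and 3.23 with TGFB1.

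Serum amyloid A rose with TGFB1. SAA1 stood at 1.90 and 4.0 CPM in the control libraries and at 17.8 and 18.5 with TGFB1. Both treated libraries were above both controls. The log2 fold change was 2.72 ± 0.85 (SE, n = 2 and 2), with an edgeR adjusted p of 0.0356. SAA2 went from 0.886 and 2.22 CPM to 16.3 and 12.1, again without overlap, a log2 fold change of 3.23 ± 0.77 (edgeR adjusted p = 0.00999). These calls were fragile. Without any 1 of the 4 libraries SAA1 missed the threshold (adjusted p from 0.0557 without control replicate 2 to 0.214 without control replicate 1), and SAA2 missed it without control replicate 1 (0.0865) or TGFB1 replicate 1 (0.053).

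Mesenchymal markers rose in the same libraries. The 10 mesenchymal markers, none of them at 0, summed to 695 and 783 CPM in the controls and 2403 and 2537 CPM with TGFB1. Their part in the change of SAA1 was not tested, but the genes were also measured within a cluster. In the mesenchymal-like cluster of this experiment, number 4 (COL3A1, COL1A2, LUM), SAA1 stood at 23.9 and 54.1 CPM in the controls and 74.9 and 98.5 CPM with TGFB1. SAA2 stood there at 7.04 and 22.1 CPM against 43.2 and 50.3. The treated libraries were above the controls for both genes within that cluster. Control replicate 1 had only 17 SAA1 and 5 SAA2 UMIs there. Cluster 4 held 75.7% of the control SAA1 UMIs and 67.9% of the TGFB1 ones. Of the SAA2 UMIs with TGFB1 it held 46.1%, and the unnamed cluster 6 held 48.5%. Over all unnamed clusters SAA1 was at 1.02 and 1.04 CPM in the controls and 9.24 and 3.81 CPM with TGFB1. SAA2 was there at 0.708 and 1.04 CPM against 12.3 and 5.11 CPM. These clusters mix cell populations that differed between the groups.

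With OA, SAA2 rose and SAA1 did not pass the test. SAA2 was at 4.97 and 5.04 CPM in the OA control and 16.4 and 12.5 CPM with OA, with no overlap, a log2 fold change of 1.88 ± 0.70 (edgeR adjusted p = 0.0453). That call lay close to the threshold. It was lost without any 1 of the 4 libraries (0.0737 without OA replicate 2 to 0.174 without OA control replicate 2), and in 5 other settings, among them DESeq2 (0.0825) and total counts as scaling (0.0728). SAA1 stood at 5.90 and 18.7 CPM in the control and 4.56 and 4.05 CPM with OA. The OA libraries were lower without overlap, at a log2 fold change of -1.13 ± 0.79 (edgeR adjusted p = 0.27), which did not pass; with no filter on low counts it passed, at 0.000138. With SAA1 and SAA2 summed as 1 feature the log2 fold change was 0.49 (adjusted p = 0.615).

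The SAA1 value in the OA control rested on few cells. Its 982 UMIs in replicate 2 came from 35 cells, 297 of them from 1 cell, while the 246 UMIs of OA replicate 1 came from 97 cells. Counting each cell with a UMI once, the log2 fold change of SAA1 turned to 1.18 (edgeR adjusted p = 0.13), while that of SAA2 kept its sign. SAA1 showed the same concentration elsewhere. In ULA day 21 replicate 1, 149 of 158 UMIs lay in 1 cell, and in PA replicate 2, 518 of 1790 did. For SAA2, 1 cell held 349 of the 1416 UMIs of PA replicate 2. In PA control replicate 1, 1 cell held 91 of the 196 SAA1 UMIs, and 1 cell held 49 of the 102 SAA2 UMIs.

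Neither gene passed the threshold with PA, although SAA2 did in 2 alternative settings. SAA1 was at 28.5 and 4.68 CPM in the control and 9.24 and 30.7 CPM with PA, so the groups overlapped (log2 fold change 0.38 ± 0.80, edgeR adjusted p = 1). SAA2 was at 14.8 and 2.05 CPM in the control and 18.0 and 24.3 with PA, without overlap (1.52 ± 0.74, adjusted p = 1). The SAA2 value was 3.33 (0.0446) with a stricter cell filter and 1.55 (4.3e-05) with no filter on low counts. Without PA control replicate 1 it was 3.49 (0.33) and without PA control replicate 2 it was 0.52 (1). In the mesenchymal-like cluster, number 7, SAA1 ran from 5.30 CPM in PA replicate 1 to 441 in PA control replicate 1. The libraries of 1 group there differed more than the groups did. On ULA plates SAA2 was at 0.398, 0.077 and 0.176 CPM on day 21 and at 0.106 and 5.80 CPM on day 34. The high value is 1 library, and the log2 fold change of 3.61 ± 1.29 did not pass (edgeR adjusted p = 0.0969); without that library it was -1.19.

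Over whole libraries SAA2 made up a larger part of the serum amyloid A UMIs with each treatment than in its control. SAA2 made up 78.3% and 75.6% of the SAA1 and SAA2 UMIs with OA, and 45.7% and 21.2% in its control. With PA it made up 66.1% and 44.2%, against 34.2% and 30.5%. With TGFB1 it made up 47.8% and 39.6%, against 31.8% and 35.7%. In each of the 3 treatments both treated libraries were above both controls. The exact (Clopper-Pearson) 95% intervals, which cover counting error only, were 75.8 to 80.7% for OA replicate 1 and 18.9 to 23.6% for OA control replicate 2. For TGFB1 the intervals overlapped, at 36.8 to 42.4% for TGFB1 replicate 2 and 30.5 to 41.2% for control replicate 2. UMIs of 1 cell are not independent, and no test was run on these shares. Within the OA control the share differed by cell class. Mesenchymal-like cells held 61 SAA2 beside 220 SAA1 UMIs in replicate 1, and 236 beside 948 in replicate 2. Unnamed clusters held 176 beside 69, and 21 beside 15. Given OA, unnamed clusters held 194 beside 27, and 133 beside 28. Mesenchymal-like cells were 29.1% and 31.8% of the control cells, against 0.906% and 0.558% of the OA cells. Their part in the change of the share was not tested. In the PA controls unnamed clusters held 14 SAA2 beside 14 SAA1 UMIs, and 41 beside 12. With PA they held 426 beside 215, and 770 beside 284, so both shares lay between those of the controls. In the TGFB1 controls unnamed clusters held 9 beside 13, and 45 beside 45. With TGFB1 they held 470 beside 353, and 169 beside 126. In cells rather than UMIs, 279 and 181 cells had SAA2 with OA beside 97 and 55 with SAA1, and 41 and 35 beside 51 and 35 in the control. With PA 186 and 312 cells had SAA2 beside 85 and 151 with SAA1, and 13 and 28 beside 16 and 25 in the control. With TGFB1 they were 357 and 169 beside 289 and 175, and 10 and 48 beside 21 and 50 in the control, so replicate 2 of each group was close to even.

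**Figure D3:**
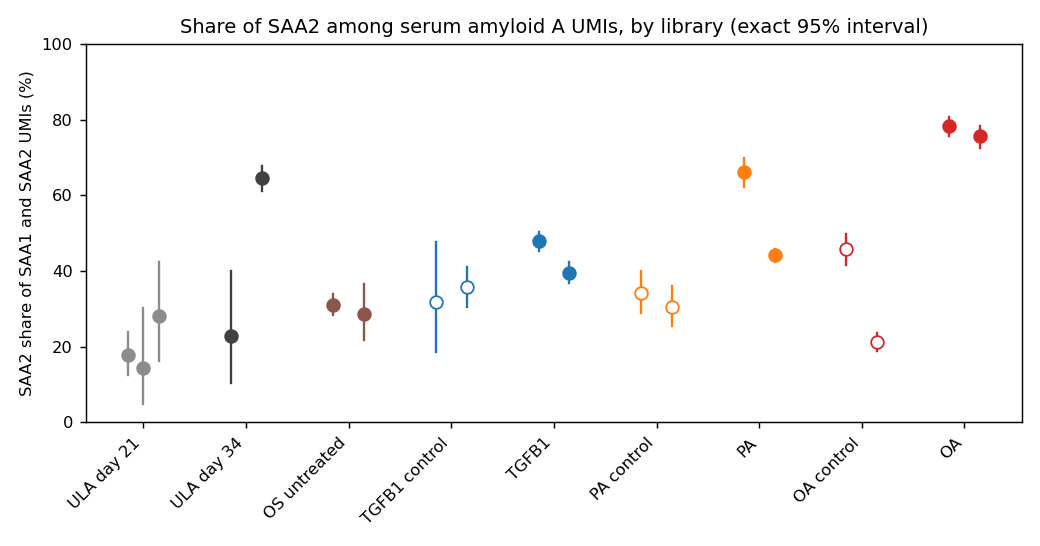
The y axis gives SAA2 as a percentage of all SAA1 and SAA2 UMIs of a library, and the x axis the 9 groups. Each point is 1 library (open for controls of a treatment) with its exact 95% interval. The OA libraries are at 78.3% and 75.6%, and ULA day 34 replicate 2 is at 64.5%, above the other 4 ULA libraries.

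LCN2 had the largest log2 fold change of the tested members with OA and with PA. It stood at 5.29 and 5.99 CPM in the OA control, on 294 and 314 UMIs, and at 79.2 and 114 CPM with OA, on 4269 and 5914 UMIs. The groups were far apart, at a log2 fold change of 4.43 ± 0.71 (n = 2 and 2, edgeR adjusted p = 0.000281). The call held under each of the 15 alternatives run for it, left-out libraries included. With PA, LCN2 went from 2.91 and 0.817 CPM to 31.3 and 22.9, also without overlap. The log2 fold change was nearly the same, 4.37 ± 0.82, and the unadjusted p was 0.000137, but the edgeR adjusted p was 0.106. It passed with DESeq2 (0.00282) and when the 4 libraries were fitted alone (0.0249). The difference of the OA and PA effects was 0.06, with a 95% interval from -2.27 to 2.39 (edgeR adjusted p = 0.982), an interval wide enough to hold a 4-fold difference either way.

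TGFB1 did not shift LCN2 past the threshold. The control libraries were at 8.48 and 22.8 CPM and the treated ones at 35.7 and 11.9, so they overlapped (log2 fold change 0.74 ± 0.62, edgeR adjusted p = 0.419). The OA control and the untreated organoids, at 1.92 and 5.63 CPM, did not differ past the threshold (0.73 ± 0.66, edgeR adjusted p = 0.641).

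On ULA plates LCN2 was nearly absent apart from 1 library. It had 6, 17 and 13 UMIs on day 21 and 1 and 1890 UMIs on day 34, that is 0.0132 and 21.4 CPM on day 34. The log2 fold change of 5.91 ± 1.81 did not pass (edgeR adjusted p = 0.0653). Its direction depended on replicate 2, since without it the value was -3.56 (adjusted p = 0.0378). In that replicate 1690 of the 1890 UMIs lay in the hepatocyte-like cluster (number 4), which had 1083 of its cells there and 36 in replicate 1.

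LCN2 UMIs lay almost wholly outside the mesenchymal-like cells. In the OA control 6 of 294 and 5 of 314 UMIs were in mesenchymal-like clusters, which held 29.1% and 31.8% of the cells. With OA these clusters held only 28 and 18 cells, with 0 LCN2 UMIs. With OA, 79.5% of the UMIs were in cluster 6, a gut epithelial-like cluster (APOA4, FABP2, KRT20), at 91.7 and 146 CPM. The unnamed cluster 7 (OLFM4, CLDN18) held 19.4%. Cluster 6 also held 51.8% and 40.8% of the cells of the OA libraries. With these libraries pooled LCN2 stood at 117 CPM in cluster 6 and at 92.4 CPM in cluster 7. Clusters 6 and 7 drew nearly all their cells from the OA libraries, so levels in them could not be compared with the control. In the cycling-like clusters LCN2 was at 1.04 and 8.10 CPM in the control and 1.79 and 28.9 CPM with OA. In the hepatocyte-like cluster it was at 0 and 4.74 CPM in the control and 1.40 and 37.2 CPM with OA, on 5 and 9 UMIs with OA. The groups overlapped in both of these classes. The largest cycling-like cluster, number 2, was led by MMP1, TRABD2A and AC060780.1. Its 50 leading genes held 3 cycling, 2 gut epithelial and 1 macrophage markers, so its name rests on few genes. The gut epithelial markers moved with the result: the 10 genes summed to 13833 to 17190 CPM with OA and 1712 to 3171 CPM in the control, with none at 0, and their part in the change was not tested. With PA, LCN2 was spread over clusters 1, 2 and 3. In cluster 1 (ANKRD1, CXCL1, CXCL6) it stood at 8.25 and 3.17 CPM in the controls and 49.9 and 43.1 with PA, and in cluster 3 (MMP7, S100A2) at 8.61 and 1.33 against 59.9 and 44.2. The treated libraries were above the controls in clusters 1 and 3, where the control levels rested on 22 and 15 UMIs over both libraries. In cluster 2 the pooled LCN2 level was 0.817 CPM in the control, on 5 UMIs, and 39.1 CPM with PA.

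The share of cells with an LCN2 UMI was higher with OA. After thinning each cell to 1000 UMIs it was 4.21% and 3.27% with OA and 0.134% and 0.368% in the control. Unthinned it was 15.2% and 10.9% against 1.01% and 2.13%, with median depths of 9661 and 7518 UMIs against 5444 and 14008. Thinning left out 104 to 248 cells a library. Mesenchymal-like cells of the OA control, which serve as cells without the gene, had 0 of 1524 and 0 of 975 after thinning, which allows shares up to 0.197% and 0.308%. The 0.134% of OA control replicate 1 therefore cannot be told from background. Unthinned they had 0.315% and 0.407%, at median depths of 4709 and 12502 UMIs. With PA the thinned share was 1.32% and 1.07% against 0.211% and 0.113%. Mesenchymal-like cells of those libraries had 1 of 330 and 1 of 637 with PA, 0.303% and 0.157% with exact intervals up to 1.68% and 0.872%, and 0 of 182 and 0 of 694 in the control, which allows up to 1.65% and 0.432%. At that depth the shares with PA replicate 1 and in the control cannot be told from background. Thinning left out 362 and 426 control cells there, and 528 and 234 with PA.

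**Figure D4:**
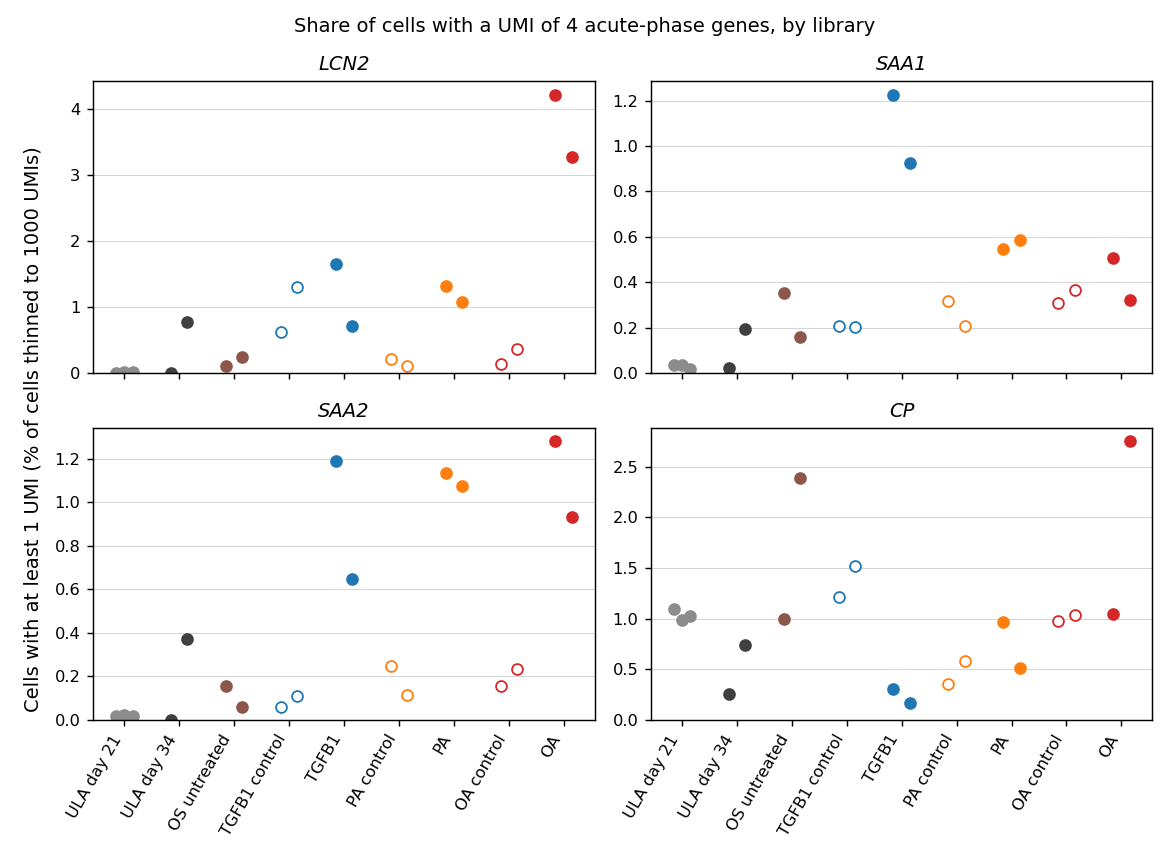
Panels show the percentage of cells with at least 1 UMI of LCN2, SAA1, SAA2 and CP, after thinning each cell to 1000 UMIs, by group. Each point is 1 library (open for controls of a treatment). LCN2 with OA is at 4.21% and 3.27%, and CP with TGFB1 is below its control.

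For SAA2 the thinned share was 1.28% and 0.931% with OA against 0.154% and 0.234% in the control. That of SAA1 was 0.505% and 0.321% against 0.307% and 0.368%, an overlap that gives no order. With TGFB1 the thinned share of SAA1 was 1.23% and 0.926%, against 0.209% and 0.204% in the control. With PA the thinned share of SAA1 was 0.547 to 0.586%, against 0.207 to 0.317% in the control. That of SAA2 with PA was 1.07 to 1.14%, against 0.113 to 0.246%. Unthinned, SAA2 was at 9.03% and 5.62% with OA against 0.751% and 1.13%, and SAA1 at 4.82% and 2.53% with TGFB1 against 0.218% and 0.588%. No cell class was fixed as lacking serum amyloid A, so these shares have no background value.

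HAMP, the iron hormone gene, was low throughout. With OA it had 14 and 22 UMIs (0.26 and 0.423 CPM), and its control 3 and 6 (0.054 and 0.114 CPM). The groups did not overlap, at a log2 fold change of 2.33 ± 0.60 (edgeR adjusted p = 0.00736). With so few molecules counting error alone is wide: the ratio of the summed counts was 4.08, with an exact interval of 1.93 to 9.62. The call was lost without OA control replicate 1 (0.0608) or OA replicate 2 (0.0596). Beside the gut epithelial and mesenchymal shifts, the hepatocyte markers summed to 13104 and 9455 CPM in the OA control and 25966 and 25021 CPM with OA, with 1 of 15 at 0 in OA replicate 2, and the cycling markers to 425 and 451 against 124 and 134 CPM, with none at 0. The part of these markers in the changes of HAMP and CRP was not tested. The hepatocyte-like cluster of the OA experiment held 0 of 55 HAMP UMIs and 0 of 61 CRP UMIs. With OA, 24 of 36 HAMP and 16 of 27 CRP UMIs lay in the unnamed cluster 7, and 6 and 7 in the gut epithelial-like cluster 6. HAMP reached its highest levels in the PA experiment, at 2.33 and 1.21 CPM in the control and 5.29 and 3.61 CPM with PA. The treated libraries were higher, by a log2 fold change of 1.51 ± 0.46, with an unadjusted p of 0.00633 and an edgeR adjusted p of 0.908.

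In that experiment HAMP was concentrated in a cell population that is not hepatocyte-like. Of 407 HAMP UMIs, 340 (83.5%) lay in cluster 8, which held 3.44% of the cells and was led by CHGA, SCG2, NEUROD1 and GHRL, genes known from neuroendocrine cells; the fixed markers gave it no name. Within it HAMP stood at 23.3 and 30.1 CPM in the controls, on 6 and 39 UMIs, and at 116 and 141 CPM with PA, on 104 and 191 UMIs. Both treated libraries were above both controls. Over whole libraries HAMP UMIs came from 35 and 33 cells with PA and from 10 and 23 cells in the control. In PA replicate 2, 1 cell held 58 of the 210 HAMP UMIs. The thinned shares of cells with HAMP overlapped, at 0.162 to 0.308% with PA and 0.0941 to 0.176% in the control. On ULA plates 87 of 163 HAMP UMIs (53.4%) lay in the hepatocyte-like cluster. With TGFB1, HAMP had 1 and 0 UMIs against 3 and 5, a ratio of 0.102 with an exact interval of 0.0023 to 0.763, and an edgeR adjusted p of 0.0763.

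CP, the ferroxidase, fell with TGFB1. It stood at 13.5 and 17.9 CPM in the control, on 213 and 938 UMIs, and at 2.48 and 1.53 CPM with TGFB1, on 109 and 60. The groups were well apart, at a log2 fold change of -2.79 ± 0.58 (n = 2 and 2, edgeR adjusted p = 0.00444). The adjusted p was 0.0527 without TGFB1 replicate 2. The share of cells with a CP UMI was lower too, from 1.21% and 1.52% to 0.306% and 0.162% after thinning (2.03% and 6.98% to 1.53% and 0.797% unthinned, at median depths of 1310 and 5634 against 7092 and 5201 UMIs). Thinning left out 2932 and 190 control cells and 127 and 101 TGFB1 cells. Among mesenchymal-like cells the thinned CP share was 0.752% and 0% in the control and 0% in both TGFB1 libraries, where a count of 0 allows 0.529% and 0.391%. The exact intervals in the control reach 2.69% and 1.05%. The TGFB1 shares and that of control replicate 1 lay below these limits, so they cannot be told from the shares of mesenchymal-like cells. Such cells are not a background free of CP. In the PA experiment CP stood in them at 4.85 and 8.96 CPM in the control and 3.18 and 17.1 CPM with PA. Unnamed clusters there stood at 5.57 and 5.54 CPM in the control and 13.3 and 5.07 CPM with PA. Other markers moved in the same libraries: the 10 gut epithelial markers summed to 583 and 536 CPM in the control and 157 and 170 CPM with TGFB1, and the 7 cycling markers to 557 and 391 against 38.7 and 33.2, with none of either list at 0. The 8 macrophage markers summed to 228 and 200 CPM in the control, with 4 and 3 at 0, and 45.3 and 33.4 CPM with TGFB1, with 2 and 3 at 0. The hepatocyte markers, at 3255 and 4942 against 5507 and 4685 CPM, overlapped. The part of these markers in the change of CP was not tested. Cluster 1, unnamed, held 51.1% of the control CP UMIs and had 313 and 5393 cells in the controls and 70 and 87 with TGFB1. Within it CP was at 23.1 and 18.4 CPM in the controls and at 7.24 and 2.36 CPM with TGFB1, the latter on 3 and 1 UMIs. In cluster 2, led by FABP1, TFF3, TFF2 and MUC13 and left unnamed because most of its leading genes are known from gut and stomach epithelium, it was at 54 and 22.6 CPM in the controls and at 4.26 and 14.8 CPM with TGFB1, on 16 and 216 against 1 and 3 UMIs. The treated libraries were below the controls in both clusters, but not in the cycling-like cluster 3, where CP was at 13.4 and 18.2 CPM in the controls and at 20.3 and 21.9 CPM with TGFB1, on 3 and 1 UMIs. Of the CP UMIs with TGFB1, 88.2% lay in the unnamed cluster 6, with 4734 and 5706 TGFB1 cells and 42 and 289 control cells. CP stood there at 2.62 and 1.66 CPM with TGFB1 and at 0 and 16.2 CPM in the controls, on 0 and 36 UMIs, so the groups overlapped. OA did not move CP past the threshold (12.1 and 14.4 CPM against 7.86 and 21.1; 0.46 ± 0.52, edgeR adjusted p = 0.504), nor did PA (5.52 and 5.90 against 12.9 and 5.84; 0.76 ± 0.57, adjusted p = 1).

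CP also fell between ULA day 21 and day 34. It stood at 18.0, 20.0 and 15.4 CPM on day 21 and at 4.16 and 10.7 CPM on day 34, without overlap (log2 fold change -1.39 ± 0.38, n = 3 and 2, edgeR adjusted p = 0.0476). This call was lost without any 1 of the 3 day 21 libraries (0.124 to 0.142) and in 7 of 10 other settings, among them total counts as scaling (0.06), a stricter cell filter (0.0654) and leaving out the 5% of cells with most UMIs (0.117). The hepatocyte markers moved with it: their sum was 2704 to 3136 CPM on day 21 and 103 and 934 CPM on day 34, with none at 0. The 5 basal squamous markers summed to at most 15 CPM on day 21 and to 603 and 1061 CPM on day 34, with none at 0, and the 8 macrophage markers to 90.4 to 169 CPM on day 21 and 3.59 and 36.9 CPM on day 34, with 1 to 3 at 0. The 5 suprabasal squamous markers were at 273 to 383 CPM on day 21 and at 466 and 1529 CPM on day 34. The 10 gut epithelial markers were at 308 to 471 CPM on day 21 and at 5.57 and 69.3 CPM on day 34, with 1 at 0 in day 34 replicate 1. The 10 mesenchymal markers were at 2064 to 2585 CPM on day 21 and at 4358 and 2668 CPM on day 34. The 7 cycling markers were at 1294 to 1501 CPM on day 21 and 640 and 879 CPM on day 34, and the 5 pluripotent or germ markers at 36.8 to 68.6 against 5.73 and 5.84 CPM. The part of these markers in the change was not tested. Day 34 cells also had an additional wash and 10 min more trypsin, which cannot be told apart from the day. Within the hepatocyte-like cluster CP was not lower on day 34, at 56.7, 73.7 and 53.3 CPM on day 21 and 140 and 81.3 on day 34, the first of these from 36 cells. That cluster held 36.1% of the day 21 CP UMIs. The unnamed cluster 6 (FABP1, APOA1, LGALS4) held 60.7% of them, at 47.1 CPM. Cluster 6 had few cells on day 34, as given with ORM2 below. The mesenchymal-like cluster held 28 of 5326 CP UMIs (0.526%). It had only 5 and 16 cells on day 34, so that share describes day 21.

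ORM2 fell with TGFB1 and between ULA day 21 and day 34. In the TGFB1 experiment it had 11 and 28 UMIs in the control, 0.696 and 0.536 CPM, and 0 and 3 with TGFB1, where 3 counts correspond to 0.0681 and 0.0765 CPM. The ratio of the summed counts, 3 to 39, was 0.0629, with an exact interval of 0.0124 to 0.198, and the edgeR adjusted p was 0.0145. The p was 0.127 without TGFB1 replicate 1 and 0.0521 without control replicate 1. In the control 16 of the 39 UMIs lay in the cycling-like cluster (number 3), which had 1157 and 724 cells there and 16 and 7 with TGFB1, and 16 in cluster 1, so the fall of the cycling and gut epithelial markers given for CP stands beside this change too, and their part was not tested. On ULA plates ORM2 was at 0.878, 0.755 and 0.917 CPM on day 21 and had 0 and 15 UMIs on day 34, a ratio of 0.107 (0.0585 to 0.18) with an edgeR adjusted p of 0.0417. Without any 1 of the day 21 libraries it did not pass (0.103 to 0.141), nor in 5 of 11 other settings, among them a stricter cell filter (0.086) and ORM1 and ORM2 summed (0.0609). On day 21, 131 of its 197 UMIs lay in cluster 6 (FABP1, APOA1, LGALS4) and 65 in the hepatocyte-like cluster. Cluster 6 had 738, 370 and 727 cells on day 21 and 3 and 13 on day 34. The gut epithelial markers summed to 308 to 471 CPM on day 21, with none at 0, and to 5.57 and 69.3 CPM on day 34, with 1 of 10 at 0 in replicate 1. Their part in the change was not tested.

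ORM2 was also the 1 member called between the OA control and the untreated organoids. It was at 0.284 and 0.746 CPM untreated and 4.95 and 1.89 CPM in the OA control, without overlap, a log2 fold change of 2.98 ± 0.60 (edgeR adjusted p = 0.0489). That call was lost in several settings, among them fitting these libraries alone (0.31) and leaving out OA control replicate 1 (0.385), OA control replicate 2 (0.131) or untreated replicate 1 (0.187). The OA libraries, at 1.43 and 1.84 CPM, were below their control but not past the threshold (-0.76 ± 0.52, edgeR adjusted p = 0.261). Those 2 comparisons share the OA control libraries.

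CRP stood highest in the TGFB1 experiment, with no change past the threshold there: 4.11 and 3.75 CPM in the control and 3.13 and 4.26 CPM with TGFB1 (log2 fold change 0.11 ± 0.37, edgeR adjusted p = 0.864; -0.085 with total counts as scaling). With OA it had 7 and 20 UMIs against 2 and 6 in the control, 0.13 and 0.384 against 0.036 and 0.114 CPM. The groups did not overlap, and the log2 fold change of 2.09 ± 0.58 passed (edgeR adjusted p = 0.011), but not without OA control replicate 1 (0.0918) or OA replicate 2 (0.238). The ratio of the summed counts was 3.44, with an exact interval of 1.52 to 8.76. Untreated organoids, at 0.302 and 0.305 CPM, lay within the range of the OA libraries. The OA control was below them without overlap, at 8 against 26 UMIs, a ratio of 0.244 with an exact interval of 0.0956 to 0.556 (log2 fold change -1.84 ± 0.59, edgeR adjusted p = 0.175). PA gave 1.34 and 1.37 CPM against 0.872 and 0.994 (0.59 ± 0.43, edgeR adjusted p = 1).

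ORM1 and HP were at the edge of detection. ORM1 had no UMI in the 4 libraries of the TGFB1 experiment. It had 1 and 12 UMIs with PA against 0 and 1 in the control (ratio 8.27, exact interval 1.24 to 351), and 2 and 5 with OA against 2 and 0 (3.57, 0.679 to 35.2). HP ranged from 0 to 0.306 CPM over the 19 libraries. Its summed counts were 7 with OA and 23 in the control (0.31, exact interval 0.112 to 0.746; edgeR adjusted p = 0.169), and edgeR called it in none of the 5 comparisons. With TGFB1 HP had 4 UMIs against 2 (log2 fold change 0.83 ± 1.2, edgeR adjusted p = 0.655), and with PA 9 against 10 (-0.59 ± 0.83, adjusted p = 1).

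The remaining values did not pass. With PA, ORM2 was at 1.60 and 2.41 CPM in the control and 2.98 and 3.57 CPM treated, without overlap (0.72 ± 0.56, edgeR adjusted p = 1). Between ULA days HAMP was at 0.445, 0.493 and 0.54 CPM on day 21 and 0.172 and 0.418 CPM on day 34, lower without overlap (-0.85 ± 0.44, edgeR adjusted p = 0.219), and without day 34 replicate 2 the value was -1.63 (0.0219). HP had 22, 11 and 11 UMIs on day 21 and 2 and 13 on day 34 (-1.19 ± 0.67, edgeR adjusted p = 0.249), and without day 34 replicate 2 the value was -2.89 (0.0241). Both genes passed the threshold without that library and not with it. SAA1 was at 1.85, 0.462 and 0.452 CPM on day 21 and 0.357 and 3.19 CPM on day 34, which overlapped (0.82 ± 0.92, edgeR adjusted p = 0.566), and passed without day 34 replicate 1 (1.65, 0.0448). CRP, not tested there, had 1, 2 and 0 UMIs on day 21 and 0 and 38 on day 34. Between the OA control and untreated organoids the libraries of SAA1 (0.71 ± 0.78, edgeR adjusted p = 0.712), SAA2 (0.61 ± 0.70, 0.727), HP (0.67 ± 0.69, 0.687), HAMP (-0.27 ± 0.72, 0.897) and CP (-0.31 ± 0.52, 0.825) overlapped.

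The effects of the treatments were also compared with each other, each against its own control. For TGFB1 against PA, 4 of 8 members differed, beside 8.81% of all genes (4.09% higher and 4.72% lower). They were ORM2, LCN2, HAMP and CP, and the log2 fold change of each was lower with TGFB1. For OA against TGFB1, 5 of 8 differed beside 31.8% of all genes (16.4% higher and 15.4% lower). The log2 fold changes of LCN2, CRP, HAMP and CP were higher with OA and that of SAA1 was lower. These concern effects and not levels. Mean CRP was 0.257 CPM with OA and 3.70 CPM with TGFB1. Mean LCN2 was 23.8 CPM with TGFB1 and 27.1 CPM with PA, and 15.6 and 1.86 CPM in their controls. For OA against PA, edgeR called 0 of 8 beside 20.5% of all genes (10.2% higher and 10.3% lower), 0 had an unadjusted p under 0.05, and DESeq2 called 0. Pairs of these differences share a treatment and its control. The HAMP and ORM2 values rest on the 1 HAMP and 3 ORM2 UMIs of the TGFB1 libraries.

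**Figure D5:**
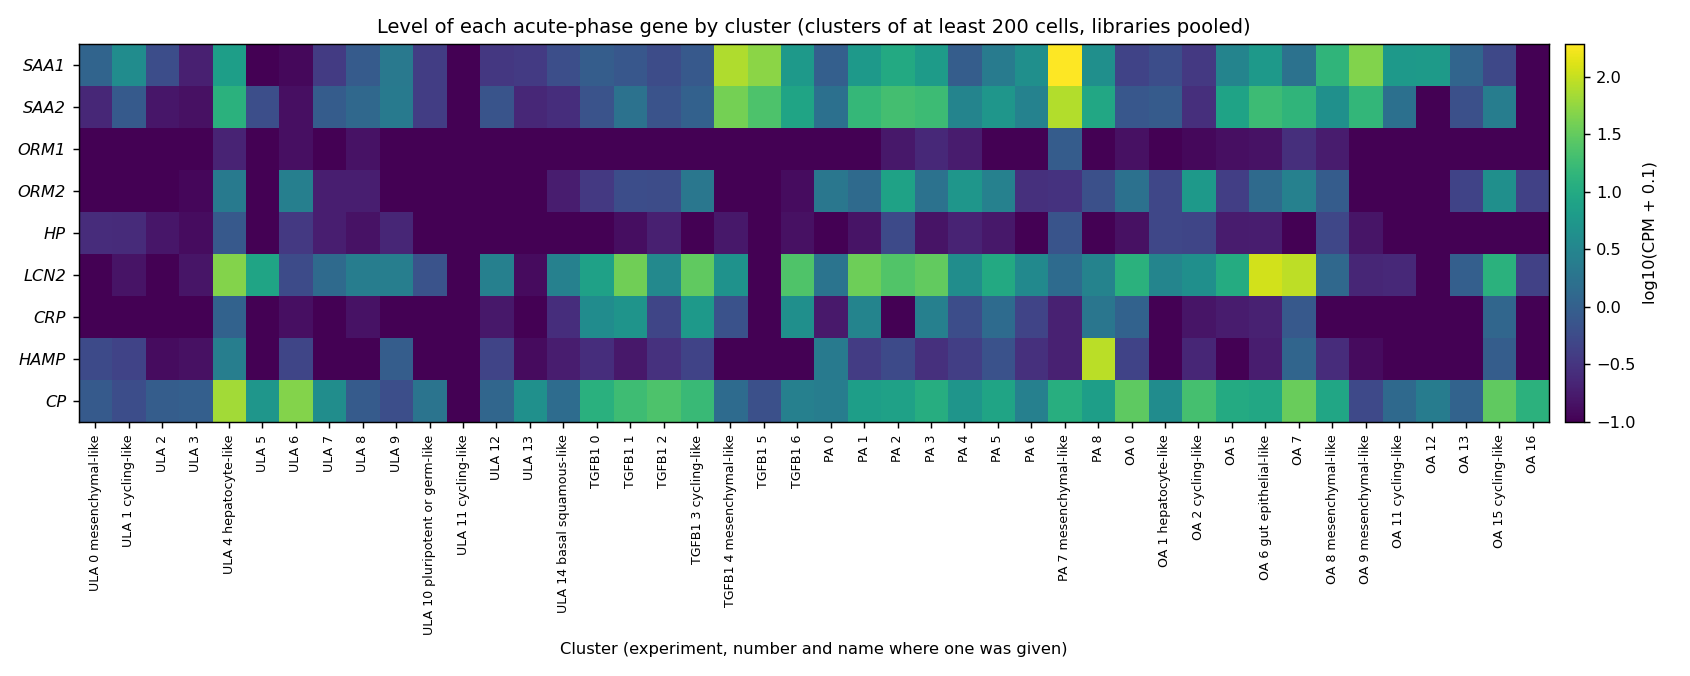
Rows are the 9 genes and columns the clusters of at least 200 cells in the 4 experiments, each clustered apart. Colour gives log10(CPM + 0.1) over the pooled cells of a cluster. SAA1 peaks in mesenchymal-like clusters of the shaker experiments, LCN2 in OA clusters 6 and 7, HAMP in PA cluster 8 and CP in ULA clusters 4 and 6.

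By cell type the members divided. In the shaker experiments mesenchymal-like clusters held 69.0% (TGFB1), 78.3% (PA) and 75.9% (OA with its control and untreated) of the SAA1 UMIs, on 6.63%, 8.22% and 24.6% of the cells. The shares differed between libraries. With OA 0 of 246 and 8 of 211 SAA1 UMIs lay in these clusters, against 220 of 328 and 948 of 982 in the control. With PA they were 5 of 220 and 1506 of 1790, against 182 of 196 and 200 of 212 in the control. With TGFB1 they were 425 of 784 and 600 of 726, against 17 of 30 and 164 of 209. PA replicate 1 and both OA libraries thus stood far below the others. Of the SAA2 UMIs the same clusters held 47.1% (TGFB1), 38.7% (PA) and 25.7% (OA with its control and untreated). The PA share was 22.9% without PA replicate 2, and that of the OA experiment was 40.3% without OA replicate 1 and 15.5% without untreated replicate 1. Over whole experiments the same clusters held at most 2.14% of the LCN2 UMIs and at most 1.71% of the ORM2 UMIs. With OA the serum amyloid A UMIs lay elsewhere, 85.8% of SAA1 and 77.7% of SAA2 in cluster 6, and 7.88% and 20.1% in cluster 7. Their levels there were 5.68 and 17.3 CPM in cluster 6, and 1.68 and 14.4 CPM in cluster 7. The mesenchymal marker sum of the OA libraries was 128 to 171 CPM, and 2887 to 4839 CPM in their control. On ULA plates the hepatocyte-like cluster held 77.4% of SAA2, 88.1% of LCN2, 85.4% of CRP and 45% of CP UMIs on 7.32% of the cells. Apart from CP, most of these UMIs came from day 34 replicate 2. Without it the cluster held 19.7% of SAA2 (12 of 61 UMIs), 18.9% of LCN2 (7 of 37), 1 of 3 CRP UMIs and 35.6% of CP. The hepatocyte-like cluster of the OA experiment, with 3.02% of its cells, held few of these UMIs. It had 8 of 2448 of SAA2, 31 of 11065 of LCN2, 0 of 61 of CRP and 39 of 4244 of CP. Clusters were built without the members or the gene lists below.

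Across the 14 shaker libraries the genes whose log2 CPM was most like each member, among genes with a mean of at least 10 CPM, are given for the members other than SAA2 and ORM1. For LCN2 they were BIRC3 (Pearson r = 0.88), CCL20 (0.86) and CXCL3 (0.86). For SAA1 they were TIMP1 (0.85), NNMT (0.80) and MMP7 (0.80). No value is given for SAA2, because these libraries mix those with and without SAA2-SAA4. For CP they were ATAD2 (0.90), TYRO3 (0.89) and HSBP1L1 (0.87), for HAMP MMP10 (0.95), SVIP (0.95) and ZCCHC10 (0.94), for CRP UVSSA (0.96), ARHGEF28 (0.95) and ERICH5 (0.95), for ORM2 RPS15A (0.91), FAU (0.89) and RPL35A (0.89), and for HP FDXR (0.85), CFAP298 (0.81) and TKT (0.80). These values describe 14 libraries that fall into 7 groups and differ in depth. Between members, SAA1 and LCN2 had r = 0.0067.

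Other genes of the acute-phase pathway were read from 5 lists. Their counts stand beside the shares of all genes called, which were 43.3% with OA, 22.2% with TGFB1, 0.0465% with PA and 17.5% for ULA. Of 20 further positive acute-phase genes 19 were tested. With OA 6 rose and 0 fell, 31.6% of the list beside 43.3% of all genes, with a list median of 0.48. C3, the central complement component, went from 50.5 and 73.2 CPM to 240 and 253 (log2 fold change 2.35 ± 0.24, edgeR adjusted p = 1.24e-05). SOD2, the mitochondrial superoxide dismutase, went from 52.1 and 55.4 to 315 and 274 CPM (2.80 ± 0.28, 1.02e-05), and C4BPA from 0.18 and 0.191 to 3.04 and 3.27 CPM. With PA 1 of 19 rose, C3 again, from 51.3 and 39.5 to 191 and 150 CPM (1.96 ± 0.24, edgeR adjusted p = 0.0103). With TGFB1 2 rose and 7 fell, with a median of -0.92. Of these SERPINA3, a protease inhibitor, rose by 2.20 ± 0.39 (edgeR adjusted p = 0.00145), while the fibrinogen chain FGA (-2.69 ± 0.26, 1.68e-05) and FGL1 (-2.08 ± 0.53, 0.0141) fell. Between ULA day 34 and day 21, 3 rose and 2 fell, among them IL1RN (4.10 ± 0.54, edgeR adjusted p = 0.00501), FGG (-4.21 ± 0.20, 0.000302) and FGB (-3.76 ± 0.85, 0.0272).

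Of 10 negative acute-phase genes 9 were tested. With OA 5 rose and 1 fell (66.7% called, list median 2.39). ALB rose from 22.0 and 7.29 CPM to 687 and 301, a log2 fold change of 5.38 ± 0.57 (edgeR adjusted p = 1.45e-05), and APOA1 and APOA2 rose by 2.97 ± 0.40 and 3.52 ± 0.60. With TGFB1 1 rose and 3 fell (median -0.62). ALB stood at 3.35 and 3.14 CPM in the control and 0.136 and 0.102 with TGFB1 (-4.53 ± 0.77, edgeR adjusted p = 0.00111), ITIH2 fell by 3.76 and TTR by 1.18 on the log2 scale. With PA edgeR called 0 of 9, DESeq2 also called 0, and 0 had an unadjusted p under 0.05. Between ULA day 34 and day 21, 0 rose and 5 fell (median -2.16), led by ALB (-4.86 ± 0.69, adjusted p = 0.00664), RBP4 (-3.76 ± 0.95, 0.0377) and APOA2 (-3.23 ± 0.73, 0.0269).

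Among 16 cytokines and receptors, 15 were tested in the shaker libraries. With OA 9 rose and 3 fell (80% called, median 0.82). IL1B went from 0.198 and 0.649 CPM to 12.8 and 8.43 (log2 fold change 5.01 ± 0.52, edgeR adjusted p = 1.24e-05), and IL1A from 2.93 and 3.07 to 46.3 and 48.1 (4.31 ± 0.37, 3.93e-06), while IL11RA fell (-2.97 ± 0.34, 2.65e-05). With PA 1 rose, TNF, from 5.38 and 3.75 to 14.5 and 19.1 CPM (1.99 ± 0.31, edgeR adjusted p = 0.0408). With TGFB1 6 rose and 0 fell, with IL11 at 1.58 and 3.39 CPM in the control and 29.4 and 22.4 with TGFB1 (3.47 ± 0.40, 5.18e-05), IL1A (2.76 ± 0.37, 0.000186) and LIF (1.96 ± 0.53, 0.019). On ULA plates 6 of 14 rose and 0 fell, among them TNF (3.71 ± 0.69, 0.0147), IL1B (2.95 ± 0.37, 0.00433) and IL11 (2.27 ± 0.29, 0.0045).

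Of the 17 intracellular regulators, all tested, 12 rose and 1 fell with OA (76.5% called, median 1.18). CREB3L3, a transcription factor, went from 10.6 and 9.44 CPM to 192 and 163 (4.48 ± 0.40, edgeR adjusted p = 4.53e-06). JAK2 rose by 1.96 ± 0.32 (0.000333). SOCS3, the feedback inhibitor of STAT3 signalling, was the one that fell, from 23.1 and 32.3 to 4.71 and 4.19 CPM (-2.28 ± 0.29, 5.57e-05). With TGFB1 3 rose, among them JAK1 (1.70 ± 0.29, 0.0012), and 4 fell, among them CREB3L3 (-1.81 ± 0.40, 0.00646) and CEBPA (-1.41 ± 0.47, 0.0464). With PA edgeR called 0 of 17, DESeq2 called 4, and 7 had an unadjusted p under 0.05, and 16 of 17 had a positive log2 fold change (median 0.43). On ULA plates 4 rose, among them ATF3 (2.65 ± 0.31, 0.0036), and 4 fell, among them HNF4A (-3.58 ± 0.78, 0.0242) and CREB3L3 (-3.63 ± 0.96, 0.0427).

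Of 21 genes of hepcidin control and iron, 20 were tested in the shaker libraries. With OA 7 rose and 2 fell (median 0.24), so 45% were called, near the 43.3% of all genes. BMP2, a ligand that activates HAMP, went from 17.6 and 15.2 CPM to 90.6 and 104 (2.90 ± 0.43, edgeR adjusted p = 0.000161). SLC40A1, which encodes ferroportin, went from 41.2 and 41.8 to 151 and 123 CPM (2.06 ± 0.24, 2.52e-05), and the transferrin receptor gene TFRC rose by 1.56 ± 0.27 (0.000451). With TGFB1 1 rose, BMP6, from 0.316 and 0.191 to 3.02 and 3.47 CPM (3.97 ± 0.36, 1.03e-05), and 2 fell, BMP2 (-1.22 ± 0.41, 0.0483) and SLC40A1 (-0.99 ± 0.23, 0.00873). With PA edgeR called 0 of 20, DESeq2 also called 0, and 0 had an unadjusted p under 0.05. On ULA plates edgeR called 0 of 19, DESeq2 called 2, and 6 had an unadjusted p under 0.05. Between the OA control and untreated organoids edgeR called 0 in each of the 5 lists. There DESeq2 called 3 of the 19 positive acute-phase genes and 0 in the other lists, and the unadjusted p was under 0.05 for 7 positive and 2 negative acute-phase genes, 1 cytokine or receptor, 4 regulators and 2 iron genes.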

How the data were processed

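Single-cell RNA-seq of 19 libraries in 9 groups was analysed from the deposited matrices of raw UMI counts (genes by cell barcodes), which the authors left unnormalized. Per the submitters' processing notes the authors used bcl2fastq, Cell Ranger 3.0.2 and Scanpy with GRCh38. The file headers name version 3.0.2 for the ULA, TGFB1 and PA libraries and their controls, and 6.0.2 for the OA, OA control and untreated libraries. The annotation is not given in the sources used here.

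Barcodes were kept with 500 or more genes seen and no more than 20% of UMIs from mitochondrial genes, and UMIs were summed per library over the gene identifiers shared by all 19. Doublets were not removed. An alternative left out the 5% of cells with most UMIs in each library. Sums were tested with edgeR 4.0.16 (filterByExpr, TMM, quasi-likelihood test, Benjamini-Hochberg adjustment over all genes tested, threshold 0.05) in R 4.3.3, with 1 fit for the 14 shaker libraries and 1 for the 5 ULA libraries. DESeq2 1.42.0 was an alternative. The procedure was tested on simulated data. Clusters (scanpy 1.11.5, 2000 variable genes, 30 components, 15 neighbours, resolution 0.5) were built per experiment without the members, the pathway lists, mitochondrial or ribosomal protein genes, and named from fixed markers; 1 TGFB1 cluster that these called hepatocyte-like was left unnamed once its leading genes were seen. Exact intervals are at 95%, a count of 0 is given the limit of 3 counts, and both cover counting error only.

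The members, gene lists and markers were chosen with earlier results of these data known. All members are named in the 5 comparisons. From each pathway list up to 3 called genes with the largest absolute log2 fold change are named for the 5 comparisons. For the differences of effects members are named, and no genes of the lists are. For likeness, the 3 genes with the highest Pearson r are named, except for SAA2. Other alternatives were total-count scaling, no filter on low counts, a fit of the compared libraries alone, other gene identifiers, all barcodes, a stricter cell filter (1000 genes, 10% mitochondrial counts), a replicate block, each library left out, and paralogs summed. Counting cells in place of UMIs, leaving out the cell with most UMIs of a member, a crossed block, the mesenchymal-like count at resolution 1 and leaving out libraries from cluster shares were chosen after seeing the data.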

Additional observations from a re-analysis of the deposited data

Results flagged for a closer look

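In 9 cases the effect of a treatment on a member differed from that of another treatment by the edgeR quasi-likelihood test of the difference itself, adjusted over all genes. Values are differences of log2 fold changes.

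Between TGFB1 and PA the ORM2 effect differed by -4.46 ± 1.12 (adjusted p = 0.0257), LCN2 by -3.64 ± 1.02 (0.0429), HAMP by -4.39 ± 1.18 (0.0349) and CP by -3.55 ± 0.81 (0.0153). Each of these calls was lost without some single library. For ORM2 these were TGFB1 control replicate 1 (0.0665), TGFB1 replicate 1 (0.13), PA control replicate 1 (0.0633), PA control replicate 2 (0.0783) and PA replicate 2 (0.0603). For LCN2 they were TGFB1 control replicate 2 (0.114), TGFB1 replicate 2 (0.13), PA control replicate 2 (0.316), PA replicate 1 (0.104) and PA replicate 2 (0.0645). For HAMP they were TGFB1 control replicates 1 (0.0987) and 2 (0.0521), TGFB1 replicates 1 (0.0667) and 2 (0.14), PA control replicate 2 (0.106) and PA replicate 1 (0.0761). For CP they were TGFB1 replicate 2 (0.0707), PA control replicates 1 (0.0503) and 2 (0.0888) and PA replicate 1 (0.0635).

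Between OA and TGFB1 the LCN2 effect differed by 3.69 ± 0.90 (0.00711), HAMP by 5.22 ± 1.24 (0.00603) and CP by 3.25 ± 0.78 (0.00624). These 3 passed under each of the 18 alternatives run for each. SAA1 differed by -3.85 ± 1.16 (0.0219), a call lost without TGFB1 control replicate 1 (0.0777), OA control replicate 2 (0.0997), OA replicate 1 (0.0591) or OA replicate 2 (0.0675). With cells counted in place of UMIs it was -1.33 (0.257). CRP differed by 1.98 ± 0.69 (0.043), a call lost without TGFB1 control replicates 1 (0.0709) or 2 (0.0703), TGFB1 replicates 1 (0.128) or 2 (0.0624), OA control replicate 1 (0.187) or OA replicate 2 (0.343).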

How the results depend on the processing

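Of 770 alternative values of 50 log2 fold changes, 637 kept their direction and side of the threshold, 90 fell short of it, 17 newly passed it and 26 changed sign. None of the 20 called ones changed sign. The number of members called with PA, 0, was 1 with DESeq2, total-count scaling, the compared libraries alone and a crossed block, and 2 with no filter or stricter cells. For the OA control against untreated, 1 became 0 with the libraries alone, stricter cells, without the 5% of cells with most UMIs, with the replicate block and with cells in place of UMIs. For OA minus PA, 0 became 2 with no filter and 1 with stricter cells. For TGFB1 minus PA, 4 became 2 without the 5% of cells and with the block. For ULA, 2 became 1 with total counts, other identifiers or without the top cell, 4 with no filter, and 0 with stricter cells, without the 5% of cells, with the block and with cells in place of UMIs. With 1 library left out the counts ran from 1 to 3 (TGFB1), 1 to 3 (OA), 0 to 1 (OA control), 0 to 2 (TGFB1 minus PA), 3 to 5 (OA minus TGFB1) and 0 to 6 (ULA). Pairs of member and experiment with over 50% of UMIs in hepatocyte-like clusters numbered 5, and 8 at resolution 1. The cause was not tested.

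Signs changed for CRP with TGFB1 (-0.085, total counts), SAA1 with OA (0.49 with paralogs summed, 1.18 with cells), SAA1 and SAA2 for the OA control (-0.30 and -0.0063, cells), and LCN2 for OA minus PA (-0.19 total counts, -1.02 stricter cells, -0.13 cells). With 1 library left out, LCN2 and CRP with TGFB1 ran from -0.27 to 1.80 and -0.11 to 0.31, SAA1 and HP with PA from -0.74 to 2.23 and -0.94 to 5.21, and ORM2 and CP with OA from -1.34 to 0.21 and -0.39 to 1.00. For the OA control SAA1, HP, HAMP and CP ran from -0.23 to 1.78, -0.30 to 1.26, -0.79 to 0.36 and -0.92 to 0.73, LCN2 for OA minus PA from -0.73 to 1.16, and SAA1, SAA2 and LCN2 for ULA from -1.49 to 1.82, -1.19 to 4.55 and -3.56 to 6.92.

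Over all genes, the 9 calls with PA became 54 (DESeq2), 17 (total counts), 162 (no filter), 16 (alone), 14 (without the 5% of cells) and 4 (block), and 0 to 20 with 1 library left out. The 111 for the OA control became 702, 255, 523 and 0 (DESeq2, total counts, no filter, alone), and 0 with the block. The 1705 for TGFB1 minus PA became 2767 with no filter and 1078 with the block, and the 3285 for ULA became 0 with the block. Left-out libraries gave 1704 to 5552 (TGFB1), 5164 to 6564 (OA), 0 to 164 (OA control, 0 without either of its libraries), 755 to 2736 (TGFB1 minus PA), 2113 to 3389 (OA minus PA, from 3971) and 669 to 6696 (ULA). Total-count scaling moved the median of all genes by -0.19 (TGFB1), -0.34 (OA), -0.15 (OA control) and 0.12 (ULA), and the share of calls that were higher from 49 to 31.6%, 50.1 to 30.6%, 14.4 to 5.10% and 54.8 to 67.7%. Same-numbered replicates correlated at -0.22 (TGFB1), 0.09 (PA), 0.04 (OA), -0.44 (OA control) and -0.29 (ULA), so the replicate block rests on a shared number only. Crossed numbers gave 21 calls for PA and 235 for the OA control. ORM1, HP, CRP, HAMP and ORM2 had at most 275 UMIs in any library. With 1 library left out, that group's lone library was assumed to vary like the others.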
